A study of Homo sapiens with 8 samples.

Results

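The AP-1 transcription factors are bZIP proteins that bind DNA as pairs, and the 10 genes studied here were the Jun family (*JUN*, *JUNB*, *JUND*), the Fos family (*FOS*, *FOSB*, *FOSL1*, *FOSL2*) and the related *ATF3*, *BATF* and *BATF3*. They were taken by name from the 20007 protein-coding genes of GENCODE 44. An enhancer was assigned to a gene when it overlapped the gene body or lay within 50 kb of the start site in GRCh38. This gave 27 of 26072 enhancers for MB002, 24 of 26317 for D425, 27 of 15286 for HD-MB03 and 21 of 20875 for UW228. Of these 99 enhancers, 1 in HD-MB03 was shared by *ATF3* and *BATF3*.

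H3K27Ac, a histone mark of active promoters and enhancers, was profiled by ChIP-seq in MB002, D425 and HD-MB03, which are Group 3 medulloblastoma (G3-MB) lines, and in UW228, a medulloblastoma line that the labels place in the SHH subtype. The labels name no engineered allele and no added agent for any line. MB002 and HD-MB03 grew in Tumor Stem Media, a medium with EGF, basic FGF, LIF, B27 and heparin. D425 grew in DMEM with fetal bovine serum, and so did UW228 according to the study's methods. Each line had 1 H3K27Ac library, made with the same antibody, and 1 input library. There was no replicate culture, so the 3 G3-MB lines describe the spread between lines and UW228 is 1 value. The signal of an enhancer is its H3K27Ac value minus its input value, floored at 0, in reads per base pair, scaled to library size, times the length of the enhancer. The number of reads behind these values is unknown, so no counting interval can be given. The authors set peaks close to promoters aside, so a start site without an enhancer says nothing about the mark at its promoter.

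AP-1 pairs recognise short palindrome-like sites and switch on genes of growth, migration, wound repair and inflammation. Jun proteins can pair with themselves or with Fos proteins, whereas Fos proteins need a Jun partner. Many of these genes are immediate-early genes, which growth factors and stress switch on within minutes through ERK and JNK signaling and serum response factor.

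Markers of the lines were examined next. *OTX2*, *CRX*, *NRL* and *NEUROD1*, which mark G3-MB, were listed at 0 in UW228 and had signal in all 3 G3-MB lines. Of the 7 markers of this list, 5 had no more than 0.5 times the signal of the lowest G3-MB line in UW228. *EOMES* went the other way, with 6565 in UW228 and at most 2644 in the G3-MB lines, and *GABRA5* had signal in MB002 only. Of 9 SHH markers, *ATOH1* was at 0 in every line, *GLI1* and *PTCH1* were lower in UW228 than in each G3-MB line, and *SFRP1* was listed only in UW228. These markers thus went, for the most part, against the SHH label of UW228. Of 9 mesenchymal markers, 5 (*COL1A2*, *COL3A1*, *FN1*, *TWIST1* and *SNAI2*) had at least 2 times the signal of the highest G3-MB line in UW228, and 2 had no more than 0.5 times that of the lowest. Their summed signal was 59710 to 126296 in the G3-MB lines and 262402 in UW228. Of 6 lymphoid and myeloid markers, *PTPRC* and *RUNX3* passed the same limit in UW228, whereas *CD3E* and *IKZF1* were at 0 there. Their summed signal was 23332 to 47226 in the G3-MB lines and 65581 in UW228, where *PTPRC* alone gave 58599, and their median was lowest in UW228 (169.9, against 623.1 to 3710 in the G3-MB lines). The part of these differences between lines in the AP-1 results was not tested. Per the file headers, the UW228 table came from a separate, later ROSE run than the other 3, so the run, the line and the subtype cannot be told apart.

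The promoters of the AP-1 genes are shown because the enhancers lie around them. RefSeq promoters (GRCh38.p14) were found for 8 of the 10 genes, with 2 for *ATF3*, and those shown are of the Jun and Fos genes with a motif match before the start site. Each is the 250 bases before the start site, 5′ to 3′ along the gene, with motif matches in capitals.
*JUN* promoter, chr1:58784048-58784297, minus strand: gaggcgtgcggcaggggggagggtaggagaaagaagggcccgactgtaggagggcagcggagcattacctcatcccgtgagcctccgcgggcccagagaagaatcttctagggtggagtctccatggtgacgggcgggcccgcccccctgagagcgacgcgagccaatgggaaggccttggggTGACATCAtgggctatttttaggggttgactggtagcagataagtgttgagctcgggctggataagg
*JUNB* promoter, chr19:12791236-12791485, plus strand: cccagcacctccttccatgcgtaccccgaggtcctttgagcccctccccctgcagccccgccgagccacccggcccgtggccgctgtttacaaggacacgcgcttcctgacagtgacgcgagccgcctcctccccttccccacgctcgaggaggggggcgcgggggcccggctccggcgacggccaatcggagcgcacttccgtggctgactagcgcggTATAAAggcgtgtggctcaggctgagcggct
*JUND* promoter, chr19:18281623-18281872, minus strand: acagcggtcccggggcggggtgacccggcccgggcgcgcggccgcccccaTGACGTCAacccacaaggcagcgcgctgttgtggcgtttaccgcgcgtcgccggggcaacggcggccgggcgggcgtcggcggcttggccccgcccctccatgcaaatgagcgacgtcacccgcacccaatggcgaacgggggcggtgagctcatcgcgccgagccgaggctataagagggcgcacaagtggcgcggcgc
*FOS* promoter, chr14:75278578-75278827, plus strand: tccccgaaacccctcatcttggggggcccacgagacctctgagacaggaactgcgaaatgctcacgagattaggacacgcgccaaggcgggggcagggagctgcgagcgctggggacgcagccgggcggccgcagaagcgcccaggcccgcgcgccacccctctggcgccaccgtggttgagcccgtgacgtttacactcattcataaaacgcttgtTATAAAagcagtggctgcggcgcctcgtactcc
*FOSB* promoter, chr19:45467746-45467995, plus strand: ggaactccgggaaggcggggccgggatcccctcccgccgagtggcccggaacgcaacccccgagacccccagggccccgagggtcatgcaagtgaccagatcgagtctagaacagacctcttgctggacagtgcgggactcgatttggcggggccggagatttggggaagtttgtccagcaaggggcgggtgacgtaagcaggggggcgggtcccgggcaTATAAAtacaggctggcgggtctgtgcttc

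The motifs searched on both strands were the AP-1 site TGACTCA, the CRE TGACGTCA, the variant TGACATCA, the TATA box TATAAA and the CArG box, a binding site of serum response factor. Windows of 300 bases, with 50 bases past the start site, were used for this search, and none of the 5 motifs overlapped another in the promoters shown. In the *JUN* promoter the variant TGACATCA began 67 bases before the start site, and it also stood in 1 of the 2 *ATF3* promoters, 123 bases before the start. It was present in 2.61% of 35116 promoters. TATAAA began 30 bases before the start of *FOSB*, 31 before *JUNB* and 33 before *FOS*, and 230 bases before the other *ATF3* start. TATAAA was present in 11.5% of all promoters. The *JUND* promoter held the CRE, 200 bases before the start, which 1.85% of all promoters held. TGACTCA was found only in the *FOSL2* window, 4 bases past the start site, against 4.95% of all promoters. The CArG box was found in none of the 9 windows and in 1.29% of all promoters. Sequence farther upstream was not searched, so this does not show that the genes lack a CArG box. A match describes letters and does not show a bound factor.

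Matches to TGACTCA also lay in the super-enhancers (SEs) of the AP-1 genes, which are the enhancers that ROSE placed above its signal cutoff. All others are typical enhancers (TEs). For 4 of the 5 genes with a SE, the site outside annotated exons nearest to the start site is shown with 20 bases on each side, on the plus strand of GRCh38, with the match in capitals. The reverse complement of TGACTCA reads TGAGTCA.
*JUN* SE of UW228, chr1:58780142-58780188: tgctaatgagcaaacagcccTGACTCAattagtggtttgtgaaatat
*FOSL2* SE of UW228, chr2:28387200-28387246: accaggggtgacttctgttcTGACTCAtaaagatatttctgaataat
*JUNB* SE of D425 and HD-MB03, chr19:12789496-12789542: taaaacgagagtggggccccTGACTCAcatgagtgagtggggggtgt
*FOSB* SE of HD-MB03, chr19:45456090-45456136: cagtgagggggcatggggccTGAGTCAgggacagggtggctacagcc

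These sites lay 3.9 kb past the start of *JUN*, and 5.6, 2.0 and 11.9 kb before the starts of *FOSL2*, *JUNB* and *FOSB*. The *JUN* SE of UW228 held 13 matches in 39.8 kb, or 3.27 per 10 kb. The *FOSL2* SE of UW228 held 4 in 36.5 kb, or 1.10 per 10 kb, which is below the 1.57 per 10 kb of the whole genome.

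Most AP-1 genes had enhancers in every line, and few had a SE. At least 1 enhancer was found for 8 of 10 genes (MB002), 10 (D425), 9 (HD-MB03) and 9 (UW228). Over all genes the same rule gave 70.5% (MB002), 72.7% (D425), 58.0% (HD-MB03) and 61.6% (UW228). SEs were at *JUNB* and *JUND* in D425, at *JUNB*, *JUND* and *FOSB* in HD-MB03, and at *JUN* and *FOSL2* in UW228. No AP-1 gene was SE-associated in MB002. The counts were thus 0, 2, 3 and 2 of 10, beside 3.32%, 4.30%, 3.08% and 4.94% of all genes in MB002, D425, HD-MB03 and UW228. The other 5 AP-1 genes had no SE in any line under this rule. UW228 shared no SE-associated AP-1 gene with a G3-MB line here, but it shared *JUND* with 100 kb, *FOSL1* with division by own input and *FOSL2* with division by the input within 500 kb. The same overlap over all SE-associated genes was not computed, so it cannot be read as particular to the AP-1 genes.

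**Figure D1:**
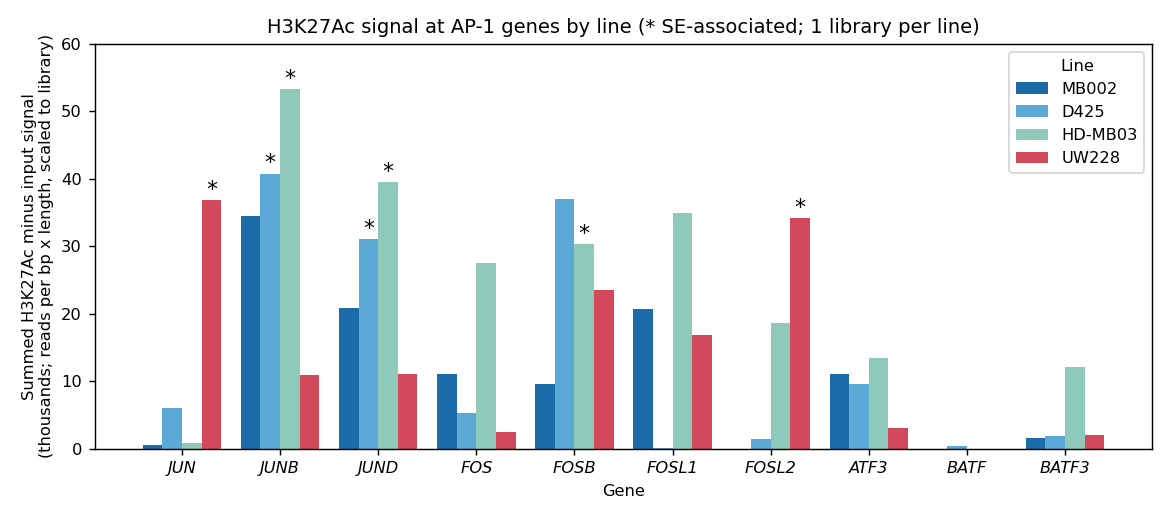
Bars give the summed H3K27Ac minus input signal of each AP-1 gene (x axis) on a linear y axis, for 1 library per line, so there are no error bars, and asterisks mark SE-associated genes. *JUN* and *FOSL2* are highest in UW228, and *JUNB*, *JUND*, *FOS* and *ATF3* are lowest there. With lines scaled to the same summed or median signal, which is not drawn, *FOSL2* was higher in HD-MB03 than in UW228.

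In the Jun family, UW228 had the highest signal at *JUN* and the lowest at *JUNB* and *JUND*. *JUN*, which encodes c-Jun, the main partner of Fos proteins (chr1:58776845-58784048, minus strand), had a summed signal of 558 (MB002), 6069 (D425), 814 (HD-MB03) and 36802 (UW228). UW228 was above every G3-MB line, and D425, which also grew in serum, was next. The UW228 value was 6.06 times that of D425. The ratio to the highest G3-MB line was 45.2 without D425, 18.4 with 25 kb, 3.13 with 100 kb and 2.57 with lines scaled to the same median signal. Under the 50 kb rule *JUN* was the only AP-1 gene in which UW228 was at least 2 times the highest G3-MB line. This was 1 of 10 genes, beside 20.5% of the 17746 genes with signal in any line, so the count itself did not stand out. In bulk chromatin, fewer cells with the mark and less of it per cell cannot be told apart.

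On the log2 scale, *JUN* in UW228 was 4.71 above the mean of the 3 G3-MB lines, whose SD was 1.85. An exact two-sided permutation test of 1 line against 3 gave p = 0.25, the smallest p that 4 lines allow, so no gene could pass 0.05. *JUN* enhancers covered 6.1 kb (MB002), 19.1 kb (D425), 0.8 kb (HD-MB03) and 49.2 kb (UW228). The signal was thus spread over more sequence in UW228: per base pair it was 0.711 times that of the highest G3-MB line, HD-MB03. By the same measure UW228 (0.7485) was above D425 (0.3183) and MB002 (0.091).

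The *JUN* SE of UW228 (chr1:58741854-58781623) ranked 442, within the top 2.12% of enhancers, and joined 6 peaks. It began 2.4 kb past the start site and ran over the 3′ part of the gene into the region beyond it. Its input per base pair was 1.29 times the median of the line, and it lost the SE call when signals were divided by that ratio. None of the G3-MB lines had an enhancer within 20 kb of the *JUN* start. A more distant stretch, 25 to 41 kb before the start, was listed in all 4 lines, with signals of 558 (MB002), 4260 (D425), 814 (HD-MB03) and 3496 (UW228). At this stretch D425 was the highest and UW228 was second. The best rank of *JUN* fell in the top 60.2% (MB002), 16.9% (D425) and 50.9% (HD-MB03).

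*JUNB*, a Jun protein that often restrains c-Jun activity (chr19:12791486-12793315, plus strand), had a summed signal of 34577 (MB002), 40800 (D425), 53354 (HD-MB03) and 10977 (UW228). UW228 was below all 3 G3-MB lines, which lay within 1.54 times of each other, and it had 0.317 times the signal of the lowest. The log2 difference was -1.94, with a G3-MB SD of 0.32 (exact permutation test, two-sided p = 0.25). UW228 was no longer at or below 0.5 times the lowest G3-MB line with the gene body or start site only, with either division by input, or with the best-ranked enhancer alone.

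The start site of *JUNB* lay inside an enhancer in all 4 lines, and *JUNB* was the only AP-1 gene of which this was true. Over the 10 genes this held for 3 (MB002), 1 (D425), 3 (HD-MB03) and 3 (UW228), beside 7.65%, 6.65%, 5.86% and 5.47% of all genes. The enhancer at the *JUNB* start ranked 816 (MB002), 176 (D425), 161 (HD-MB03) and 2465 (UW228). In D425 its input per base pair was 1.42 times the median of the line, and division by that ratio moved it to rank 617 and took its SE call. The stretch around the start (chr19:12777348-12796632, 19.3 kb) was listed as 1 enhancer in D425 and UW228, as 4 in HD-MB03 and as 5 in MB002. Summed over it, MB002 held 30935, and the lowest SE of that line had a signal of 32422. Of the 24 enhancers of *JUNB*, 7 had its start site as the closest, and the others lay nearer to another gene.

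*JUND*, the Jun protein that is made steadily rather than induced (chr19:18279694-18281622, minus strand), followed the same order as *JUNB*. Its signal was 20925 (MB002), 31095 (D425), 39574 (HD-MB03) and 11141 (UW228). UW228 was again lowest, at 0.532 times the lowest G3-MB line, just short of the limit of 0.5. The log2 difference was -1.41 with a G3-MB SD of 0.46 (exact permutation test, two-sided p = 0.25). Its SE ranked 92 in HD-MB03, where it covered the start site, and 321 in D425, where it ended 3.1 kb before the start of *JUND* and held the start site of *LSM4*, which encodes an RNA-binding protein. With 100 kb in place of 50 kb the direction turned (log2 difference 0.37), and *JUND* then also had a SE in UW228.

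**Figure D2:**
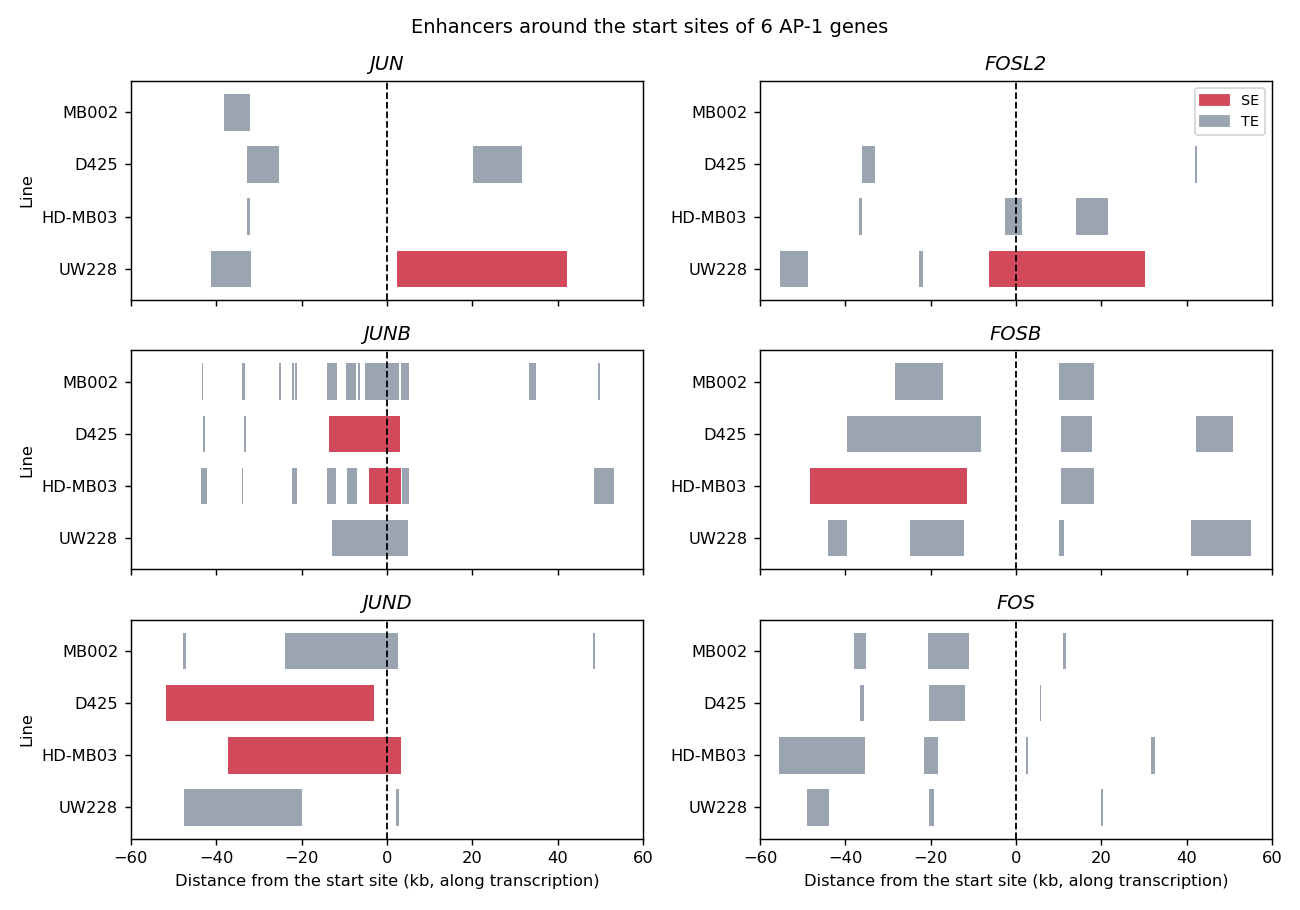
Each panel shows the enhancers of 1 AP-1 gene in the 4 lines (rows) by distance from the start site in kb along transcription (x axis), with SEs in red, TEs in grey and the start site as a dashed line. In UW228 the *JUN* SE lies past the start and the *FOSL2* SE spans it, while *JUNB* and *JUND* have SEs in D425 and HD-MB03.

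In the Fos family the order of the lines differed from gene to gene. *FOS* encodes c-Fos, the classical immediate-early partner of c-Jun (chr14:75278826-75282230, plus strand). Its signal was 11049 (MB002), 5296 (D425), 27482 (HD-MB03) and 2478 (UW228). UW228 was lowest, at 0.468 times D425, but the G3-MB lines themselves spanned 5.19 times. With 100 kb, or without input subtraction, *FOS* in UW228 was above 0.5 times the lowest G3-MB line. The log2 difference was -2.24 with a G3-MB SD of 1.19, and p was 0.50 in the exact two-sided permutation test. When each enhancer was divided by its own relative input, the difference turned to 2.31, and with the input of the surrounding 500 kb it was -1.95. A UW228 enhancer of 0.4 kb (signal 221.7) had a relative input of 0.0039, by which its signal was divided.

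No enhancer covered the *FOS* start in any line. Because peaks close to promoters were set aside, this does not describe the mark at the *FOS* promoter. A pair of stretches upstream, 11 to 22 kb and 35 to 56 kb before the start, was listed in all 4 lines. The nearer one had a signal of 5990 (MB002), 4666 (D425), 14352 (HD-MB03) and 963 (UW228). The best enhancer of *FOS* ranked 744 in HD-MB03 and 11672 in UW228. All 13 *FOS* enhancers had the start site of *FOS* as the closest.

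*FOSB*, which is induced with *FOS* and can give a long-lived short form (chr19:45467995-45475179, plus strand), had a signal of 9645 (MB002), 37052 (D425), 30409 (HD-MB03) and 23465 (UW228). UW228 lay inside the range of the G3-MB lines. Its SE in HD-MB03 ranked 271 and held the start site of *ERCC1*, a DNA repair gene. The SE call was lost without input subtraction, and with enhancers at the gene body or start site only. In D425 the matching enhancer ranked 444 and fell just short of the cutoff, with a signal of 25845 against 26267 for the lowest SE. Of 11 *FOSB* enhancers, 5 had its start site as the closest.

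*FOSL1* encodes Fra-1, a Fos protein linked to invasive growth (chr11:65892049-65900573, minus strand). Its signal was 20670 (MB002), 139.5 (D425), 34933 (HD-MB03) and 16853 (UW228). D425 stood apart, with 1 enhancer of 0.2 kb. In UW228 the whole signal came from 1 TE of 23.3 kb that covered the start site and ranked 1373. In the other 2 lines most of it came from an enhancer about 38 kb past the start, which in HD-MB03 ranked 398 and held the start sites of *CFL1* and *MUS81*. Only 1 of 8 *FOSL1* enhancers had its own start as the closest.

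*FOSL2* encodes Fra-2, a Fos protein active in connective tissue (chr2:28392448-28417317, plus strand). It was listed at 0 in MB002 and had a signal of 1463 (D425), 18636 (HD-MB03) and 34270 (UW228). UW228 was the highest, at 1.84 times HD-MB03, and no fold could be given against MB002. With lines scaled to the same summed or median signal, HD-MB03 was above UW228. Per base pair, HD-MB03 (1.5484) was also above UW228 (0.7815). The UW228 SE (chr2:28386603-28423055) ranked 663, joined 9 peaks and covered the start site, and it was not among the 500 top-ranked enhancers of the line. HD-MB03 had a TE of 4.1 kb at the same start, which ranked 592 and had a signal of 16838. Without HD-MB03, *FOSL2* also passed the 2-fold limit.

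*ATF3*, a stress-induced factor of the ATF family (chr1:212565334-212620777, plus strand), had a signal of 11080 (MB002), 9557 (D425), 13492 (HD-MB03) and 3128 (UW228). The G3-MB lines lay within 1.41 times of each other, and UW228 was below them at 0.327 times the lowest. The log2 difference was -1.85 with a G3-MB SD of 0.25 (exact permutation test, two-sided p = 0.25), and per base pair it turned to 0.34. With *FOS* and *JUNB*, *ATF3* made 3 of 10 AP-1 genes with UW228 at no more than 0.5 times the lowest G3-MB line, beside 20.5% of all genes with signal. The count fell to 1 with the gene body or start site only and with either division by input (*ATF3* in each), and to 1 per base pair (*JUNB*). No *ATF3* enhancer was a SE under the 50 kb rule, and its best rank was 1813, in HD-MB03. With 100 kb, or with the start of the GENCODE gene feature as the start site, *ATF3* gained a SE in HD-MB03 at rank 84, and the log2 difference was -2.78 or -3.54. The difference was larger still with 25 kb (-4.59) and with the gene body or start site only (-4.08).

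*BATF*, a factor of T and B cells (chr14:75522455-75546993, plus strand), had a signal of 441 in D425, from 2 short enhancers, and was listed at 0 in MB002, HD-MB03 and UW228. *BATF3*, which is needed for a class of dendritic cells (chr1:212686417-212699840, minus strand), had 1573 (MB002), 1886 (D425), 12171 (HD-MB03) and 2056 (UW228). UW228 lay within the G3-MB range. The high HD-MB03 value included the enhancer shared with *ATF3*, of signal 6872.

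**Figure D3:**
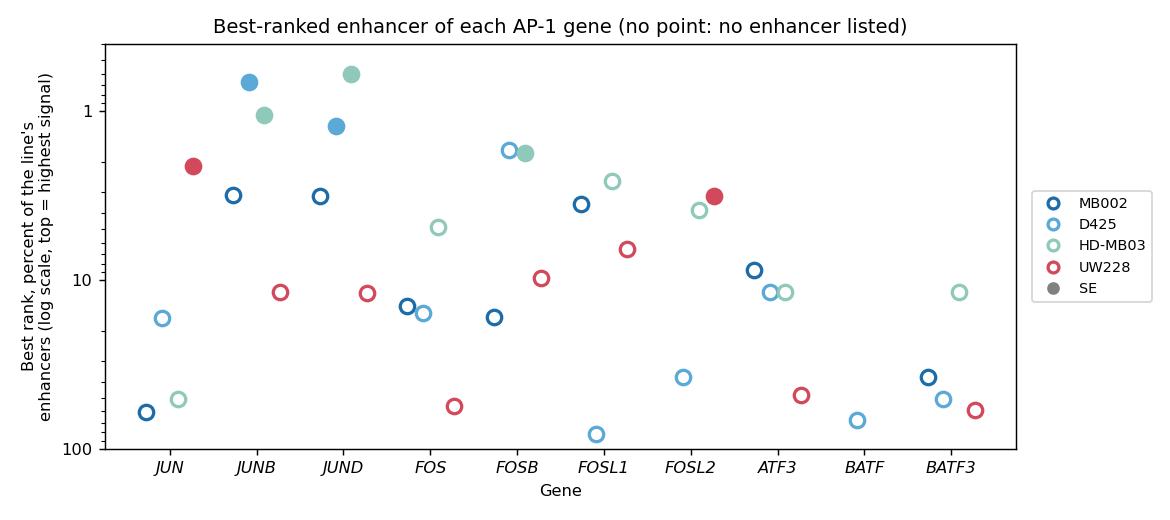
The best-ranked enhancer of each AP-1 gene (x axis) is shown as a percent of the enhancers of its line on a log scale, with the highest signal at the top, 1 point per line, and filled points for SEs. The 3 highest points are *JUND* in HD-MB03 (0.602%), *JUNB* in D425 (0.669%) and *JUNB* in HD-MB03 (1.05%).

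Where they had an enhancer, the AP-1 genes ranked higher than the median gene in each line. The median of their best ranks fell at 11.5% (MB002), 16.2% (D425), 3.87% (HD-MB03) and 11.8% (UW228). Over all genes with an enhancer it was 26.0%, 23.5%, 26.6% and 32.9%. The median ratio of UW228 to the highest G3-MB line was 0.257 over the 10 genes and 0.182 over the 17024 genes with signal in a G3-MB line. Over genes with signal also in UW228 the order was the opposite, with 0.282 over 9 AP-1 genes and 0.571 over 11594 genes.

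Of the 99 enhancers, 10 covered a start site of their gene, 13 overlapped the gene body only and 76 lay in the flanks. The member gene had the closest start in 60 of 99. Merged over lines they formed 41 stretches, of which 9 were listed in all 4 lines and 19 in a single line. Relative input density, the input per base pair divided by the median of the line, ran from 0.64 to 1.42 in the 7 SEs and reached 2 in 7 of the 99 enhancers. At the edge of the window, the farthest enhancer inside lay 49.7 kb from *BATF3* in D425 (signal 640.1), and the nearest outside lay 50.8 kb from *FOSB* in UW228 (signal 674.9).

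Density of the TGACTCA motif was then set side by side for the lines. Over all enhancers, the UW228 set held 2.53 matches per 10 kb, above 1.78 (MB002), 1.87 (D425) and 1.81 (HD-MB03). At least 1 match was in 59.0% of UW228 enhancers and in 39.4%, 38.2% and 37.5% of those of MB002, D425 and HD-MB03, while UW228 enhancers were also longer (median 2263 bp against 1286 to 1584 bp). The enhancers of the AP-1 genes held 2.43 (MB002), 2.41 (D425), 2.18 (HD-MB03) and 2.58 (UW228) per 10 kb. They were thus above the set of their line by the largest margin in MB002 and by the smallest in UW228. Among the genes, *JUNB* enhancers held 3.91 to 4.75 per 10 kb in every line, with 6 of 12 sites inside an enhancer in all 4 lines.

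Genes around AP-1 in the pathway were examined by lists. Among 17 known AP-1 target genes, 8 had at least 2 times the signal of the highest G3-MB line in UW228 and 0 had no more than 0.5 times the lowest, beside 20.5% of all genes in each direction. *VIM*, the mesenchymal filament vimentin, had 54006 in UW228 against at most 826 in the G3-MB lines, a ratio of 65.4. *CD44*, a hyaluronan receptor, had a ratio of 14.8, and *IL6*, an inflammatory cytokine, 16.5. *CCN1*, a matrix protein induced by serum, had 69913 in UW228 and a ratio of 6.92. *MMP13*, a collagenase, was listed only in UW228. *VIM* is also a mesenchymal gene, although it is not among the mesenchymal markers given above. Whether this list moved with those markers was not tested. SEs were at *VIM*, *CD44*, *CCN1* and *PLAU* in UW228, whereas MB002 and HD-MB03 had 0. The median signal of the list was 1704, 826, 0 and 8565 in MB002, D425, HD-MB03 and UW228.

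The other lists had fewer genes past the 2-fold limit in UW228. The immediate-early genes had a summed signal of 151228 to 242754 in the G3-MB lines and 299563 in UW228. There *IER3* alone gave 104391, and *IER2*, *IER3*, *IER5* and *KLF6* were highest in UW228. With lines scaled to the same summed or median signal, the sum of this list was higher in HD-MB03 than in UW228. The same held at *IER2*, *IER5* and *KLF6*, whereas *IER3* stayed highest in UW228. Without scaling, the median ratio of UW228 to the highest G3-MB line was 0.679 for the immediate-early genes and 0.602 for the AP-1 targets. Of 11 immediate-early genes, *IER3* was at least 2 times higher in UW228 (ratio 3.13), whereas *EGR1* and *NR4A1*, growth factor induced transcription factors, had no more than 0.5 times the lowest G3-MB line. SEs were at 3 of the 11 in D425, 5 in HD-MB03, 4 in UW228 and 0 in MB002, beside 4.30%, 3.08%, 4.94% and 3.32% of all genes, and *IER2* had one in all lines but MB002. Of 9 other bZIP partners, 0 were at least 2 times higher in UW228 and 1, *ATF2*, was at 0 there with signal in all G3-MB lines. Of 15 genes of the ERK and JNK pathway, 1 (*SPRY2*) was at least 2 times higher and 5 had no more than 0.5 times the lowest. The 5 were *MAPK8* and *MAP2K7*, a kinase of the JNK cascade and its activator, and the feedback inhibitors *DUSP4*, *DUSP5* and *SPRY4*.

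**Figure D4:**
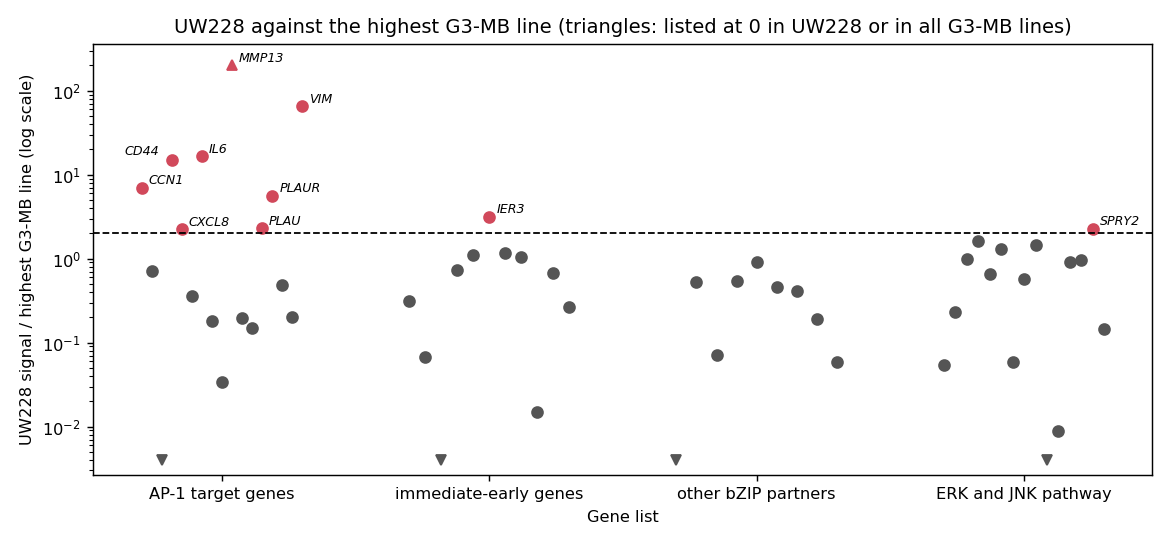
Each point is 1 gene of the list on the x axis, with the ratio of its UW228 signal to the highest G3-MB line on a log scale, the dashed line at 2 and triangles for genes listed at 0 in UW228 or in all G3-MB lines. The 8 labelled AP-1 target genes lie above 2, with *VIM* at 65.4.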

How the data were processed

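H3K27Ac ChIP-seq of 4 lines was analysed, with 1 H3K27Ac and 1 input library each. The authors aligned reads to GRCh38 with Bowtie2 2.3.0, handled them with SAMtools 1.9 (versions from the submitters' processing notes), removed duplicates and multi-mapped reads with sambamba, called peaks over input with MACS2 2.2.6, and stitched and ranked the peaks with ROSE. The deposited H3K27Ac and input signal is in reads per base pair, scaled to library size, times the enhancer length. The deposited score is the rank, and a deposited column gives the SE call. The authors set peaks close to promoters aside, but broad peaks over a start site, as at *JUNB* in HD-MB03, are listed. Depth is unknown.

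Input was subtracted and the result floored at 0. Gene bodies came from GENCODE 44 and start sites from the Ensembl canonical transcripts. Regions were assigned within 50 kb with Python 3.11.15, NumPy 2.4.6 and pandas 2.3.3, and matplotlib 3.10.9 drew the plots. Assignment, cutoff, local input and motif search were tested on simulated data. The members, lists and limits were chosen with earlier results of these data known, and motif density in enhancers and the share of genes listed in a pair of lines were added later. Named genes were all members, up to 4 per other list by ratio or SE rank, the markers, and genes whose start lay in a member's SE or top 500 enhancer. More than 4 are named in the closing section, and *PLAU*, *MMP13*, *EGR1*, *NR4A1*, *ATF2*, *SPRY2*, *MAPK8*, *MAP2K7*, *DUSP4* and *SPRY4* were chosen after their values were seen. The motif letters were matched exactly in the hg38 genome and in RefSeq promoters. Alternatives changed the window, start site, signal, SE cutoff, scaling and quantity, or left out a G3-MB line. Some genes of the lists and 1 sequence window are not reported here.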

Additional observations from a re-analysis of the deposited data

How the results depend on the processing

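No paired analysis was possible because each line has 1 H3K27Ac library and UW228 shares only the number 1 with MB002. The depth of the libraries is unknown, the 3 G3-MB lines are not replicate cultures, and the cause of each change below was not tested.

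*JUN* stayed higher in UW228 than the mean of the G3-MB lines in all 12 alternatives that gave a value (log2 difference 1.26 to 5.77), and *JUNB* stayed lower in all 14 (-3.00 to -1.07). Scaling shifted the log2 difference of every gene by -0.55 (same summed signal) or -1.05 (same median signal).

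The number of SE-associated AP-1 genes became 1 in D425 with the gene body or start site only, and 1 with signal divided by the input density of each region. It became 6 in HD-MB03 with division by the input within 500 kb, and 1 in UW228 with the 500 top-ranked regions, where *FOSL2* lost the call. Division by own input density took the SE call from *JUN* in UW228 and *JUNB* in D425. The gene body or start site rule took it from *JUND* in D425 and *FOSB* in HD-MB03, and leaving out the input subtraction took it from *FOSB*.

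Genes at least 2 times higher in UW228 became 2 with 100 kb, 2 with either input division and 0 per base pair, and 1 to 2 when a G3-MB line was left out (2 without HD-MB03). Genes at no more than 0.5 times became 1 with the gene body or start site only, 1 with either input division and 1 per base pair, and 3 to 4 when a line was left out. Genes with an enhancer became 4 in MB002, 4 in D425 and 5 in UW228 with the gene body or start site only.

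The log2 difference turned to 2.31 for *FOS* with division by own input density. For *FOSB* it turned to -2.15 with 25 kb, -0.47 with the same summed signal, -0.97 with the same median signal and -0.21 with the best-ranked region. Leaving out a line gave -0.52 (without MB002) to 0.45. For *FOSL1* it was -0.90 per base pair, and -0.67 (without D425) to 3.31 when a line was left out. For *JUND* it was 0.37 with 100 kb, for *ATF3* 0.34 per base pair, and for *BATF3* 0.98 per base pair and -1.22 to 0.26 (without HD-MB03) when a line was left out.

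With the gene body or start site only, the lists gave 2 bZIP partners, 0 immediate-early genes and 0 ERK and JNK genes at least 2 times higher, and 1 immediate-early gene and 1 ERK and JNK gene at no more than 0.5 times. Scaling to the same summed signal gave 1 AP-1 target at no more than 0.5 times. The start of the GENCODE gene feature, an alternative chosen after seeing the data, moved none of the counts by more than 1.5 times and turned no direction, but it gave *ATF3* a SE in HD-MB03 (4 genes in place of 3) and moved its log2 difference from -1.85 to -3.54.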

Other observations

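Some genes of the AP-1 pathway had signal in D425 and UW228, the lines grown in serum, and were listed at 0 in MB002 and HD-MB03. Of the 52 genes of the 4 pathway lists, 7 showed this pattern (13.5%), as did 0 of the 10 AP-1 genes, beside 821 of 17746 genes with signal in any line (4.63%). Among them were *EGFR*, the EGF receptor, *CCN2*, a matrix protein, the cytokine *IL6*, the bZIP factor *MAF* and the JNK pathway kinase *MAP2K4*. *EGFR* had 46726 in D425 and 76270 in UW228, where its best enhancer ranked 92 and was a SE. *CCN2* was higher in D425 (11867) than in UW228 (8565). The reverse pattern, signal in MB002 and HD-MB03 only, was found for 0 of the 52 genes and for 1.85% of all genes. A pair across the media, MB002 and UW228, held 3 of the 52 (5.77%, beside 3.21% of all genes), which were *MMP1*, *MMP3* and *MMP10*, neighbours with the same best-ranked enhancer in MB002. The pattern was chosen after the values were seen, and the medium cannot be told apart from the lines.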
